A study of Mus musculus with 3 samples.

Results

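The transcripts of 6 genes for secreted matrix proteins, *Fn1*, *Spp1*, *Thbs1*, *Tgfbi*, *Vcan* and *Ecm1*, were followed through monocyte and macrophage (Mφ) states, other leukocytes and time points of muscularis inflammation. They were chosen by name, with earlier results of these data known, and are 6 of the 14148 genes listed in each count table. The study used female wild type mice of the strain C57BL/6J, 12 weeks of age, sorted CD45+ leukocytes from the muscle layer (muscularis externa) of their small bowel and profiled single cells by droplet-based 3' RNA sequencing. One library came from naïve mice, and the others from mice killed 24 h and 72 h after intestinal manipulation, a surgical handling of the bowel that inflames the muscle layer. Tissue of 3 to 4 mice was pooled for each library. With 1 library per time point no test between time points is possible, and the effects of time and of library cannot be told apart.

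The extracellular matrix is a meshwork of secreted proteins on which cells adhere and migrate, and in wounds a provisional matrix rich in fibronectin precedes collagen. Besides fibroblasts, monocytes and Mφs make several of these proteins, among them matricellular proteins, which signal to cells through integrins and other receptors rather than carry load. In the muscularis, Mφs lie close to enteric neurons and smooth muscle, and monocytes enter this layer after surgery.

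The naïve library held 652 cells and 1865221 unique molecular identifiers (UMIs, each a tag of 1 captured mRNA molecule), the 24 h library 2211 cells and 10542346 UMIs, and the 72 h library 1239 cells and 5246731 UMIs, with medians of 2134.5, 4669 and 3295 UMIs per cell. Clusters were named "-like" from marker genes, without use of the 6 genes. Monocyte/Mφ-like cells numbered 138, 1542 and 575 in the 3 libraries, but not in the same clusters. Clusters 13 and 6 held 70 and 38 of the naïve cells, clusters 0, 2, 4 and 3 held 577, 424, 300 and 232 of those at 24 h, and clusters 6, 11 and 3 held 243, 138 and 96 of those at 72 h. Each pair of libraries shared 1 cell barcode. A level is given in CPM, the number of UMIs of a gene in a group of cells divided by all UMIs found there and multiplied by 1000000. The 95% intervals of levels (exact Poisson), ratios (conditional Poisson) and shares (Clopper-Pearson) cover counting error only, not differences between mice. Those of levels and ratios treat UMIs as independent, so they are too narrow where few cells hold most UMIs of a gene.

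All 6 genes are protein coding. In GRCm38, *Fn1* lies at chr1:71585520-71653200 (minus strand), *Spp1* at chr5:104435118-104441050 (plus), *Thbs1* at chr2:118111876-118127133 (plus), *Tgfbi* at chr13:56609523-56639562 (plus), *Vcan* at chr13:89655312-89742509 (minus) and *Ecm1* at chr3:95734147-95739569 (minus). *Spp1* overlaps *Gm42793* and *Ecm1* overlaps *Mir7014* on the same strand, so reads there are uncertain between the pair. The 250 bases before the transcription start are shown for *Spp1* and *Vcan*, which differed most between the naïve and 24 h libraries, and for *Ecm1*, which differed less. They are RefSeq sequences of GRCm38.p6 printed 5′ to 3′ on the strand of the gene, with motif matches in capitals. The windows are chr5:104434861-104435110 (plus strand), chr13:89742513-89742762 (minus) and chr3:95739570-95739819 (minus).
Spp1: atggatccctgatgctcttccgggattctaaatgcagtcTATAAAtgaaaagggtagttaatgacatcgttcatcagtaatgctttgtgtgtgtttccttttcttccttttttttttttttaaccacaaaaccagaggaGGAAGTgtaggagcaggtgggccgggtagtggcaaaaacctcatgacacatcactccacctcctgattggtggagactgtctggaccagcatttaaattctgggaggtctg
Vcan: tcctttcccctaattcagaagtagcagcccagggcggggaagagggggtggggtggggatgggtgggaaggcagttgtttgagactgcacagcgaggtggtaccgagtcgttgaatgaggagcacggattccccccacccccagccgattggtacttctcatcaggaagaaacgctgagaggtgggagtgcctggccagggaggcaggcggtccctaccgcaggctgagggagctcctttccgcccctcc
Ecm1: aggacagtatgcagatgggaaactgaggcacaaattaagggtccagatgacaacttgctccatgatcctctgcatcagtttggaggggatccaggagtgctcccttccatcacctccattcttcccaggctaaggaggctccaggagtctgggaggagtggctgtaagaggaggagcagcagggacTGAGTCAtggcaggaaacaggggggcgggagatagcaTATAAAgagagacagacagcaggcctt
Both strands were searched for 4 motifs: AP-1 (TGANTCA), C/EBP (TTGCNNAA), a TATA box (TATAAA) and an ETS core (GGAAGT). The *Spp1* window held a TATA box match at -211 to -206 and an ETS core match at -111 to -106, counted from the start. The *Ecm1* window held an AP-1 match at -64 to -58 and a TATA box match at -27 to -22, and the *Vcan* window held no match. No match overlapped another. Of 32851 RefSeq promoter windows of this length, 6.75% held an AP-1 match, 9.56% a C/EBP match, 12.4% a TATA box match and 19.7% an ETS core match, so matches of this kind are common. Before a later RefSeq start of *Spp1*, inside the gene, a C/EBP match (TTGCAGAA) lay at -156 to -149, and the *Tgfbi* window held none of the 4 motifs.

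To find which leukocytes carried these transcripts, their UMIs were summed by cell class. Monocyte/Mφ-like cells held most of the UMIs of every gene in every library. At 24 h they held 97.7% of *Fn1* UMIs, 97.2% of *Spp1*, 88.7% of *Thbs1*, 95.05% of *Tgfbi*, 98.8% of *Vcan* and 97.2% of *Ecm1*, with 85.2% of all UMIs. At 72 h they held between 85.0% (*Tgfbi*) and 91.0% (*Vcan*), with 58.6% of all UMIs. In the naïve library they held 89.0% of 543 *Fn1* UMIs and 84.9% of 86 *Spp1* UMIs with 26.1% of all UMIs, whereas *Vcan* had only 3 UMIs in all 652 cells.

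**Figure D1:**
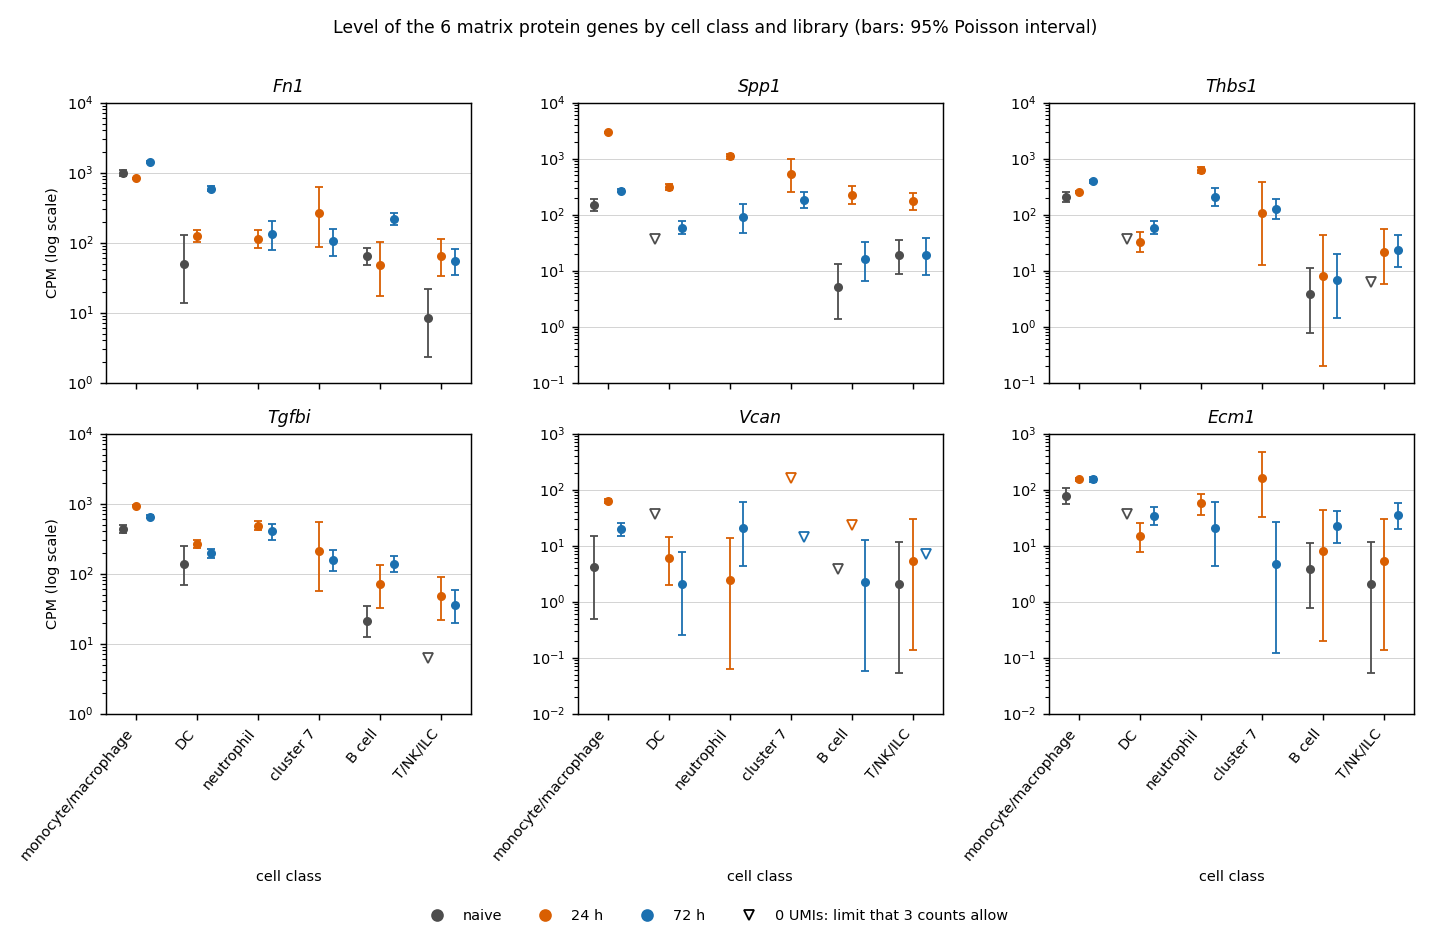
Level of each gene (y axis, CPM on a log scale) by cell class (x axis) and library (colour), for classes of at least 20 cells in a library. Points are sums over cells, bars are 95% Poisson intervals and open triangles mark the limit that 3 counts allow where no UMI was found. The level of Spp1 is highest at 24 h in every class shown at that time, lymphocytes included.

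Lymphocyte-like cells served as the low reference for each library. Their UMIs can come from free RNA in the droplets or from the cells themselves, since activated T and NK cells can make osteopontin and T helper cells *Ecm1*, and these sources cannot be told apart here. In B, T, NK and ILC-like cells together, *Spp1* was at 10.2 CPM in the naïve library, 197 CPM at 24 h and 17.5 CPM at 72 h, so this reference moved with the library. Their *Fn1* level was 43.3, 57.1 and 139 CPM and their *Tgfbi* level 13.4, 57.1 and 87.3 CPM. *Fn1* was uneven among them. In the naïve library 46 of 55 UMIs lay in the 51 cells of the dividing B cell-like cluster 12, of which 7.84% had any, while the other B cell-like cluster was at 10.4 CPM (3.39 to 24.4) and T/NK/ILC-like cells at 8.42 CPM (2.29 to 21.6). At 72 h cluster 12 held 80 of 119 UMIs. *Thbs1* stayed at or below 15.9 CPM, *Ecm1* at or below 29.1 CPM and *Vcan* at 1 UMI per library in these cells.

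Neutrophil-like cells stood out among the cell classes for *Thbs1* at 24 h, but not at 72 h. At 24 h their *Thbs1* level was 639 CPM (95% interval 563 to 721). It was 256 CPM (246 to 267) in monocyte/Mφ-like and 15.9 CPM (5.15 to 37.0) in lymphocyte-like cells of the same library. One cluster of monocyte/Mφ-like cells described below, led by *Mmp12* and *Cxcl3*, was as high, at 647 CPM (535 to 776). At 72 h the neutrophil-like level was 207 CPM (139.8 to 296), below the 391 CPM (369 to 414) of monocyte/Mφ-like cells. Neutrophil-like cells held 9.98% of *Thbs1* UMIs at 24 h with 3.85% of all UMIs. Both neutrophil-like clusters carried it, with 655 CPM in cluster 1 (363 cells) and 564 CPM in cluster 14 (49 cells, leading genes *Acod1* and *Il1f9*). A few cells held most of it, as 22.9% of cells in cluster 1 and 16.3% in cluster 14 had a *Thbs1* UMI and the 10% of cells with the most held 74.0% and 92.5% of these UMIs. After each cell was thinned to 1000 UMIs, which left 151 of 412 cells, 29.1% of neutrophil-like cells had a *Thbs1* UMI, compared with 1.89% of lymphocyte-like cells (22.1% and 4.59% without thinning). *Spp1* in neutrophil-like cells was at 1095 CPM at 24 h and 89.8 CPM at 72 h. Its UMIs per cell at 24 h were 0.780 in cluster 1 and 3.29 in cluster 14, against 0.569 in lymphocyte-like cells, so those of cluster 1 were close to the lymphocyte value per cell.

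DC-like cells carried *Fn1* mainly at 72 h. Their *Fn1* level was 49.8 CPM (4 UMIs) in the naïve library, 125 CPM at 24 h and 586 CPM (538 to 636) at 72 h, where the lymphocyte level was 139 CPM. Most of it lay in cluster 8, the *Cd209a*-expressing DC-like cells, at 746 CPM. Their *Tgfbi* level was 137, 267 and 197 CPM in the 3 libraries, and *Vcan* was at or below 5 UMIs in each.

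Within monocyte/Mφ-like cells, the 6 genes differed in when they were high. *Spp1*, which encodes osteopontin, a phosphoprotein that binds integrins and CD44, was at 150.1 CPM (118 to 189) in the naïve library, 2949 CPM (2914 to 2985) at 24 h and 268 CPM (250.2 to 287) at 72 h. The 24 h level was 19.7-fold that of naïve cells (95% interval 15.6 to 25.1), and the 72 h level 0.0909-fold that at 24 h (0.0847 to 0.0975). Over all these cells *Spp1* was thus highest in the 24 h library. *Vcan*, the gene of versican, a large chondroitin sulphate proteoglycan that binds hyaluronan, had the same course at low counts: 4.11 CPM (2 UMIs), 62.0 CPM (557 UMIs) and 19.8 CPM (61 UMIs). Its ratio of 24 h to naïve was 15.1 with an interval from 4.15 to 125, as 2 UMIs fix the lower level poorly, and 28.6 as a mean over cells.

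*Tgfbi* encodes a TGF-β-induced protein that links collagen and integrins. It was at 432 CPM (375 to 494) in naïve cells, 933 CPM (914 to 954) at 24 h and 653 CPM (624 to 682) at 72 h, a 2.16-fold difference between the first 2 (1.89 to 2.49). *Ecm1*, a secreted glycoprotein that binds other matrix proteins, was at 78.1 CPM (55.3 to 107), 152 CPM (144 to 160) and 153 CPM (139.6 to 168). Its 72 h and 24 h levels did not differ beyond counting error (ratio 1.01, 0.906 to 1.12).

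*Fn1* and *Thbs1* were highest at 72 h. *Fn1* encodes fibronectin, the adhesive glycoprotein of provisional matrix, and was at 993 CPM (906 to 1086) in naïve cells, 825 CPM (807 to 844) at 24 h and 1408 CPM (1366 to 1450) at 72 h. The 24 h to naïve ratio of 0.831 (0.758 to 0.913) turned to 1.06 when only cells with 500 genes or more and no more than 5% mitochondrial UMIs were kept and to 1.01 as a mean over cells, so no direction is read from it. The 72 h to 24 h ratio was 1.71 (1.64 to 1.77). *Thbs1* encodes thrombospondin-1, a matricellular protein that binds CD36 and CD47 and activates latent TGF-β, and was at 209.7 CPM (171 to 255), 256 CPM (246 to 267) and 391 CPM (369 to 414).

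The 6 genes were then set against all genes that reached 50 CPM in one of the libraries compared, with 2-fold as the limit. As the 6 genes were chosen with earlier results of these data known, the counts are a description and no evidence of enrichment. From naïve to 24 h, 3 of the 6 genes (*Spp1*, *Vcan* and *Tgfbi*) were at least 2-fold higher and 0 lower, where 11.4% of 2801 genes were higher and 8.5% lower. *Tgfbi* at 2.16-fold and *Ecm1* at 1.94-fold lay on either side of this limit, and the intervals of both include it. From 24 h to 72 h, 0 were higher and 2 (*Spp1* and *Vcan*) lower, where 3.82% of 2698 genes were higher and 4.93% lower. The 2 comparisons share the 24 h library. Fewer cells of a type and less RNA per cell cannot be told apart in sums over all monocyte/Mφ-like cells. Levels were therefore next taken within states. Some states held enough cells for this at both 24 h and 72 h, but none did in both the naïve and the 24 h library.

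**Figure D2:**
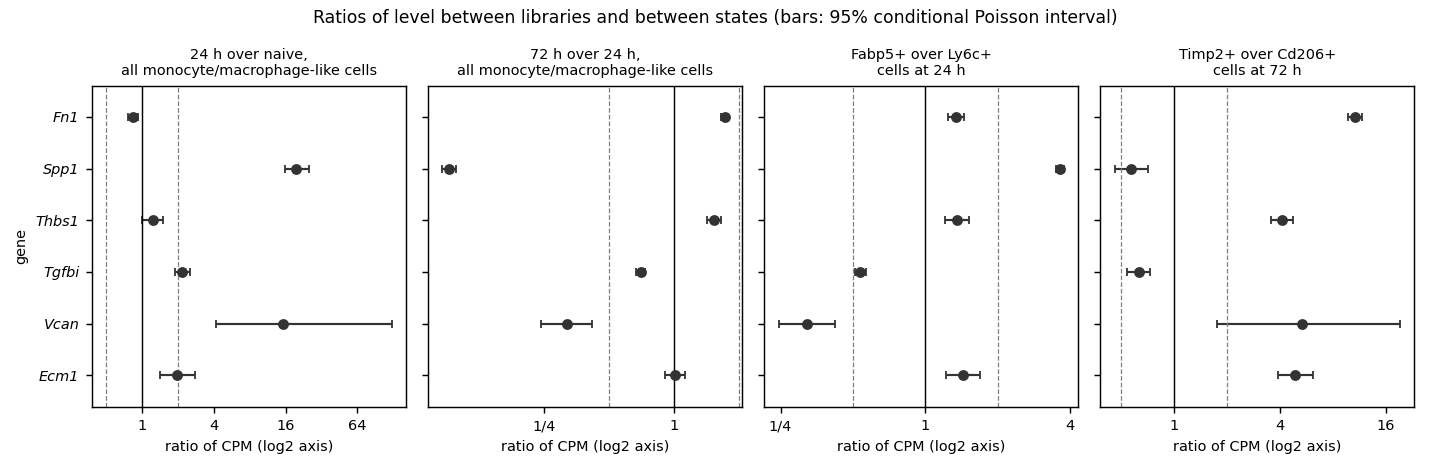
Ratio of CPM (x axis, log2 scale) for each gene (y axis) in 4 comparisons within monocyte/macrophage-like cells, with 95% conditional Poisson intervals as bars, a solid line at 1 and dashed lines at 2-fold either way. Spp1 is 19.7-fold higher at 24 h than in naïve cells, and Fn1 is 10.7-fold higher in Timp2+ than in Cd206+ cells at 72 h.

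The monocyte/Mφ-like cells were clustered again into 10 states. Names were given to Ly6c+ monocyte-like cells (5, 313 and 27 cells in the naïve, 24 h and 72 h libraries), to Fabp5+ cells (1, 427 and 5), to intermediate-like cells with MHC class II genes and *Plbd1* in front (5, 202 and 69), to Cd206+ cells (28, 4 and 253), to Timp2+ cells (11, 3 and 126) and to Cx3cr1+ cells (71, 0 and 19). The other clusters are called by their leading genes: *Ltc4s* and *Tppp3* (2, 280 and 16 cells), *Mmp12* and *Cxcl3* (0, 38 and 21), and the B cell genes *Cd79a* and *Ebf1* (11, 22 and 17). A low-UMI cluster (4, 253 and 22 cells, median 2133 UMIs) had no marker among its leading genes. States with fewer than 20 cells in a library are not given a level there. No state reached this number in both the naïve and the 24 h library. Ratios of 24 h to naïve were therefore not taken within states, and the part of cell mix in them was not tested.

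*Fn1* ranged widely across states. In Cx3cr1+ cells of the naïve library it was at 23.4 CPM (5 UMIs in 71 cells), with an interval (7.60 to 54.6) that overlaps those of the other B cell-like cluster and of T/NK/ILC-like cells. At 24 h it was at 474 CPM in Ly6c+, 593 CPM in intermediate-like and 635 CPM in Fabp5+ cells, with 706 CPM in the low-UMI cluster, 1698 CPM (1513 to 1899) in the *Mmp12*/*Cxcl3* cluster and 1982 CPM (1909 to 2056) in the *Ltc4s*/*Tppp3* cluster. The intervals of the Fabp5+ (608 to 664) and intermediate-like cells (553 to 634) overlap, whereas that of Ly6c+ cells (445 to 504) lies below both. At 72 h it was at 366 CPM in Ly6c+, 393 CPM in Cd206+, 937 CPM in intermediate-like, 1542 CPM in low-UMI, 3305 CPM (2908 to 3742) in *Mmp12*/*Cxcl3* and 4203 CPM (4041 to 4369) in Timp2+ cells. The Timp2+ level was 10.7-fold that of Cd206+ cells (9.73 to 11.8), the other main state of the 72 h library. After thinning, 88.9% of 117 Timp2+ cells and 30.1% of 249 Cd206+ cells had an *Fn1* UMI.

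**Figure D3:**
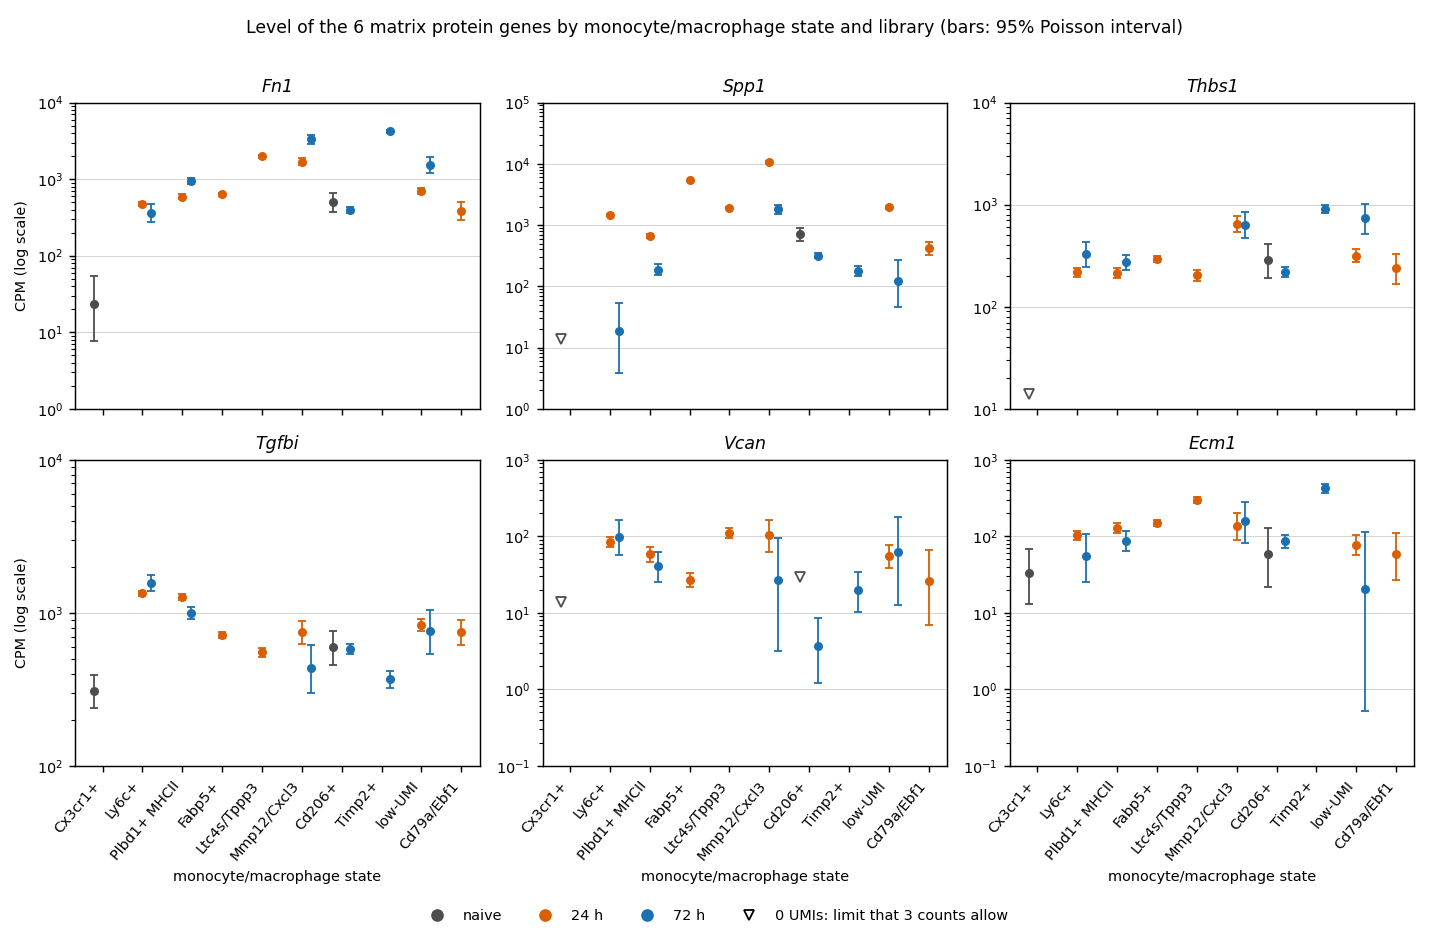
Level of each gene (y axis, CPM on a log scale) by monocyte/macrophage state (x axis) and library (colour), for states of at least 20 cells in a library. Points are sums over cells, bars are 95% Poisson intervals and open triangles mark the limit that 3 counts allow where no UMI was found. Fn1 peaks in Timp2+ cells at 72 h, Spp1 in the Mmp12/Cxcl3 cluster and Fabp5+ cells at 24 h, and Tgfbi in Ly6c+ cells and, at 24 h, also in intermediate-like cells.

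Timp2+ cells, few in number, held most *Fn1* UMIs outside the 24 h library. In the naïve library 11 of them, with 2.70% of all UMIs, held 320 of 543 *Fn1* UMIs, a share of 58.9% (54.7 to 63.1). At 72 h Timp2+ cells held 50.5% of *Fn1* UMIs (49.1 to 51.9) with 11.6% of all UMIs. At 24 h, when Timp2+ cells numbered 3, the *Ltc4s*/*Tppp3* cluster held 37.3% with 13.6% of all UMIs. Defining fibroblast genes (*Col1a1*, *Col1a2*, *Col3a1*, *Dcn*, *Lum* and *Pdgfra*) together had 1 UMI in Timp2+ cells at 72 h, 0 in the *Ltc4s*/*Tppp3* cluster at 24 h and 25 in Cd206+ cells at 72 h.

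*Thbs1* followed *Fn1* at 72 h but not at 24 h. At 72 h it was at 911 CPM (837 to 990.2) in Timp2+ and 221 CPM (196 to 247) in Cd206+ cells, a ratio of 4.13 (3.58 to 4.77), with 637 CPM in the *Mmp12*/*Cxcl3* cluster and 740 CPM (518 to 1024) in the 22 cells of the low-UMI cluster. At 24 h it was highest in the *Mmp12*/*Cxcl3* cluster at 647 CPM (535 to 776), followed by 316 CPM (273 to 365) in the low-UMI cluster and 293 CPM (274 to 313) in Fabp5+ cells, while Ly6c+ (217 CPM), intermediate-like (213 CPM) and *Ltc4s*/*Tppp3* cells (203 CPM) had overlapping intervals. No *Thbs1* UMI was found in 71 Cx3cr1+ cells, which allows a level of up to 14.0 CPM. In the naïve library Timp2+ cells held 60.7% of 107 *Thbs1* UMIs and Cd206+ cells 27.1%. Of 5 platelet markers 2 were measured. *Ppbp*, a platelet chemokine gene, had 399 UMIs in Fabp5+ cells at 24 h, 45 in the low-UMI cluster and 8 in Ly6c+ cells, with *Itga2b*, an integrin subunit of platelets, at 0 UMIs in all 3. The leading genes of Fabp5+ cells also included the antibody genes *Igha* and *Igkc*. Platelets carry thrombospondin-1 too, and the part of platelet and B lineage RNA in the Fabp5+ levels was not tested.

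*Spp1* was concentrated in Fabp5+ cells and the *Mmp12*/*Cxcl3* cluster at 24 h. Its level was 419 CPM in the *Cd79a*/*Ebf1* cluster, 665 CPM in intermediate-like, 1474 CPM (1422 to 1527) in Ly6c+, 1876 CPM (1806 to 1948) in *Ltc4s*/*Tppp3*, 1953 CPM (1842 to 2069) in low-UMI, 5356 CPM (5275 to 5439) in Fabp5+ and 10796 CPM (10322 to 11285) in *Mmp12*/*Cxcl3* cells. The *Ltc4s*/*Tppp3* and low-UMI levels did not differ beyond counting error, and the lymphocyte level was 197 CPM. Fabp5+ cells held 60.7% of all 27270 *Spp1* UMIs of the library (60.1 to 61.3) with 29.3% of all UMIs, and their level was 3.63-fold that of Ly6c+ cells (3.50 to 3.78).

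Within states present in both later libraries, *Spp1* was lower at 72 h. In Ly6c+ cells it went from 1474 CPM (3070 UMIs in 313 cells) to 18.6 CPM (3 UMIs in 27 cells), close to the 17.5 CPM of lymphocyte-like cells, and in intermediate-like cells from 665 to 186 CPM, a ratio of 0.279 (0.224 to 0.345). The *Mmp12*/*Cxcl3* cluster went from 10796 to 1832 CPM, a ratio of 0.170 (0.142 to 0.202), and remained 10.2-fold above Timp2+ cells of the 72 h library (7.88 to 13.2). In the naïve library 28 Cd206+ cells held 72 of the 86 *Spp1* UMIs (713 CPM, 558 to 898), while 71 Cx3cr1+ cells had none. The Cd206+ level at 72 h was 314 CPM, or 0.441-fold that of the naïve library (0.343 to 0.574). Few cells set the naïve level. Of the 28 naïve Cd206+ cells 35.7% had an *Spp1* UMI, and the 10% with the most held 62.5% of them.

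*Spp1* was also uneven between cells of a state. In Ly6c+ cells at 24 h, the 10% of cells with the most *Spp1* UMIs held 74.9% of them, compared with 26.0% for *Tgfbi* and 31.4% for *Fn1* by the same measure. In Fabp5+ cells these shares were 53.0% for *Spp1*, 30.2% for *Tgfbi* and 37.4% for *Fn1*. The share rises for genes with few UMIs, and *Spp1* had more UMIs than the other 5 genes in both states.

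*Tgfbi* had its highest level in Ly6c+ and intermediate-like cells. At 24 h it was at 1340 CPM (1291 to 1391) in Ly6c+ and 1276 CPM (1217 to 1336) in intermediate-like cells, which overlap, then 833 CPM in low-UMI, 748 CPM in *Cd79a*/*Ebf1*, 747 CPM in *Mmp12*/*Cxcl3*, 719.6 CPM in Fabp5+ and 553 CPM in *Ltc4s*/*Tppp3* cells. At 72 h it was at 1569 CPM (1382 to 1775) in Ly6c+, 999 CPM (914 to 1089.7) in intermediate-like, 760.5 CPM in low-UMI, 582 CPM (542 to 624) in Cd206+, 438 CPM in *Mmp12*/*Cxcl3* and 367 CPM (321 to 419) in Timp2+ cells. Ly6c+ cells were thus highest at 72 h. At 24 h intermediate-like and Ly6c+ cells did not differ beyond counting error (ratio 0.952, 0.897 to 1.01). In Cx3cr1+ cells of the naïve library *Tgfbi* was at 309 CPM (239 to 393) with 32.9% of thinned cells positive, against 13.4 CPM and 0.905% in lymphocyte-like cells. *Ecm1* also lay above lymphocyte-like cells in Cx3cr1+ cells, at 32.8 CPM (13.2 to 67.5, 7 UMIs) against 3.15 CPM (0.858 to 8.06). In Cd206+ cells *Tgfbi* was at 594 CPM in the naïve and 582 CPM in the 72 h library (ratio 0.9795, interval 0.753 to 1.30).

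*Vcan* counts were low throughout. At 24 h it was at 84.5 CPM (72.5 to 97.9) in Ly6c+, 111 CPM (94.0 to 129) in *Ltc4s*/*Tppp3* and 105 CPM (63.3 to 164) in *Mmp12*/*Cxcl3* cells, against 27.2 CPM (21.7 to 33.6) in Fabp5+ cells, with 58.8 CPM in intermediate-like and 55.5 CPM in low-UMI cells between them. At 72 h it was at 99.3 CPM (16 UMIs) in Ly6c+ cells, within counting error of the 24 h level (ratio 1.17, 0.657 to 1.96), and at 3.72 CPM (5 UMIs in 253 cells) in Cd206+ cells. The 72 h to 24 h ratio was 1.11 (0.218 to 3.54) in low-UMI and 0.699 (0.411 to 1.14) in intermediate-like cells. In *Mmp12*/*Cxcl3* cells it was 0.253 (0.0285 to 1.05), with 2 UMIs at 72 h. Both states that held most *Vcan* UMIs at 24 h had fewer cells at 72 h. Ly6c+ cells held 31.2% of UMIs, with 313 of 1542 cells at 24 h and 27 of 575 at 72 h. The *Ltc4s*/*Tppp3* cluster held 28.0%, with 280 and 16 cells. The part of these cell numbers in the lower level over all monocyte/Mφ-like cells was not tested. No *Vcan* UMI was found in naïve Cd206+ or Cx3cr1+ cells, which allows up to 29.7 and 14.0 CPM.

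*Ecm1* shared with *Fn1* the state of its highest level at 24 h and at 72 h. In the other states high for *Fn1*, *Ecm1* lay further below that highest level. It was highest in Timp2+ cells at 72 h at 422 CPM (372 to 477), 4.89-fold the 86.2 CPM of Cd206+ cells (3.91 to 6.14), and at 24 h in the *Ltc4s*/*Tppp3* cluster at 297 CPM (269 to 326), 2.86-fold the 104 CPM of Ly6c+ cells (2.42 to 3.39). The *Mmp12*/*Cxcl3* cluster, high for *Fn1* and *Spp1*, had 138 CPM (89.5 to 204) at 24 h, within counting error of the 149 CPM of Fabp5+ cells. At 72 h this cluster came next after Timp2+ cells, as for *Fn1*. It was at 159 CPM (82.3 to 278), 0.378-fold the Timp2+ level (0.193 to 0.671). Its interval overlaps that of Cd206+ cells (71.3 to 103), and the low-UMI cluster was at 20.6 CPM (1 UMI). Timp2+ cells held 48.0% of *Ecm1* UMIs at 72 h and 42.9% of 42 in the naïve library.

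**Figure D4:**
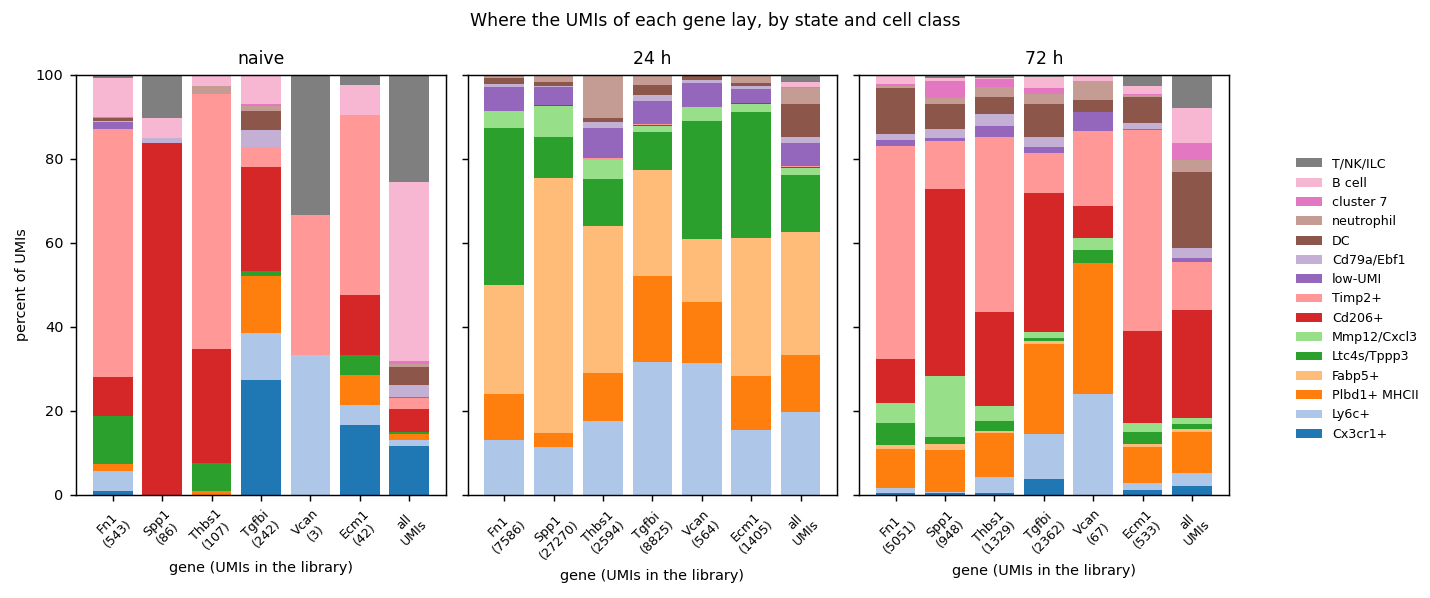
Percent of the UMIs of each gene (y axis) that lay in each monocyte/macrophage state and other cell class (colours), per gene (x axis, with its UMIs in that library) and library (panels), beside the same split of all UMIs. Timp2+ cells hold 58.9% of Fn1 UMIs in the naïve library and 50.5% at 72 h, and Fabp5+ cells 60.7% of Spp1 UMIs at 24 h.

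The same 2-fold description was made between states of 1 library, and the same caution about the choice of genes applies. Between Fabp5+ and Ly6c+ cells at 24 h, 1 of the 6 genes was higher in Fabp5+ cells (*Spp1*) and 1 lower (*Vcan*, ratio 0.322, 0.245 to 0.419), where 3.12% of 2722 genes were higher and 6.43% lower. *Tgfbi* was just inside the limit (0.537, 0.508 to 0.568). Between Timp2+ and Cd206+ cells at 72 h, 3 of the 5 genes that reached 50 CPM (*Fn1*, *Thbs1* and *Ecm1*) were higher in Timp2+ cells and 0 lower, where 10.9% of 2716 genes were higher and 6.81% lower. *Spp1* (0.571, 0.458 to 0.707) and *Tgfbi* (0.631, 0.541 to 0.733) were lower by less than 2-fold, and *Vcan* stayed below 50 CPM in both.

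Whether the genes were found in the same cells was examined after thinning each cell to 1000 UMIs. The median number of the 6 genes detected per monocyte/Mφ-like cell was 0 in the naïve library (133 cells), 2 at 24 h (1526 cells) and 1 at 72 h (559 cells), and cells with none made up 50.4%, 8.39% and 17.7%. At 72 h *Thbs1* was found in 33.1% of cells with an *Fn1* UMI (27.6 to 38.9) and in 17.3% of cells without (13.01 to 22.2), and *Ecm1* in 18.5% (14.1 to 23.5) and 8.63% (5.61 to 12.6). Within Cd206+ cells alone these shares overlapped, at 24.0% and 19.5% for *Thbs1* and 10.7% and 8.05% for *Ecm1*. At 24 h *Thbs1* was found in 19.6% and 19.0% of cells with and without *Fn1*, within counting error. In naïve cells it was found in 10 of 25 cells with *Fn1* and in 2 of 108 without.

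**Figure D5:**
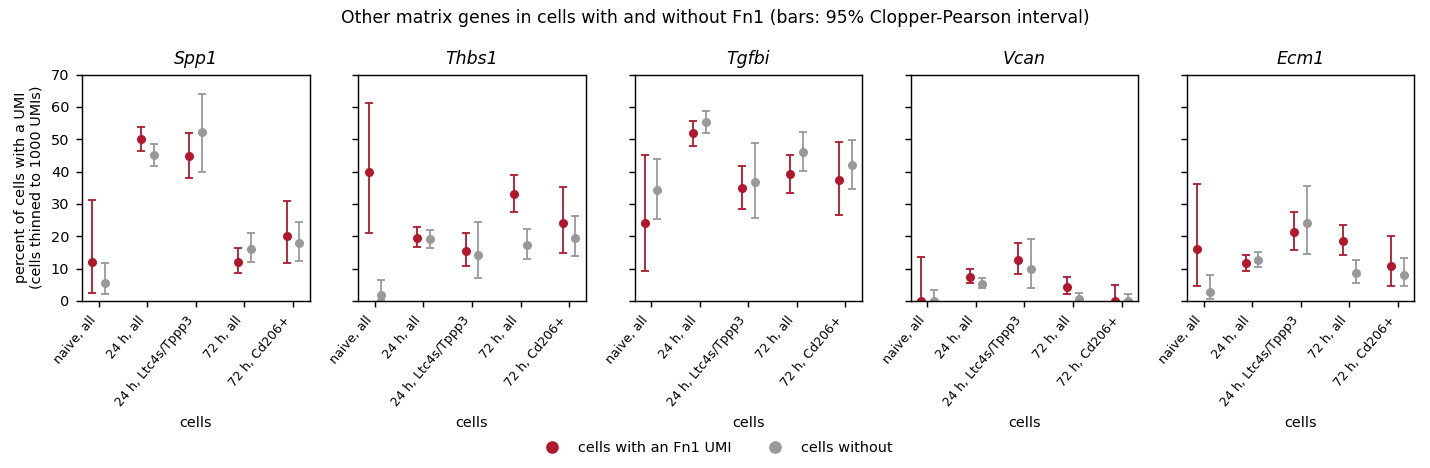
Percent of cells with a UMI of each other gene (y axis) among monocyte/macrophage-like cells with and without an Fn1 UMI (colours), for all such cells of a library and for 2 states (x axis), each cell thinned to 1000 UMIs, with 95% Clopper-Pearson intervals. At 72 h Thbs1 and Ecm1 are found more often in cells with Fn1 over all cells (33.1% against 17.3% and 18.5% against 8.63%), with overlapping intervals within Cd206+ cells.

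Genes with the most similar pattern were sought by Pearson correlation of log2(CPM + 10) over 28 groups of state or class and library among 3591 genes, a description only, as the groups share 3 libraries and their background. For *Fn1* these were *BC005537* (r = 0.86), the stress-response gene *Nupr1* (0.85) and the metalloproteinase gene *Adam15* (0.85). For *Spp1* they were *Cstb*, an inhibitor of cathepsins (0.89), *Plin2*, a coat protein of lipid droplets (0.85), and the lysosomal protease gene *Ctsd* (0.83). For *Thbs1* they were the guanine deaminase gene *Gda* (0.89), the NADPH oxidase subunit gene *Cyba* (0.88) and *F10*, coagulation factor X (0.87), and for *Vcan* again *F10* (0.84) and the glycolytic genes *Eno1* (0.81) and *Pgk1* (0.78). *Tgfbi* was most like *Pirb*, an inhibitory receptor (0.93), the lectin gene *Clec4a3* (0.93) and *Lyz2*, lysozyme (0.90), and *Ecm1* like *Nupr1* (0.84), *Gm21188* (0.83) and the vesicle transport gene *Rab1a* (0.82). Among the 6 genes themselves r was highest for *Fn1* with *Thbs1* (0.82) and *Ecm1* (0.80) and lowest for *Spp1* with *Vcan* (0.52). Lymphocyte-like groups, the low reference, are among the 28, and their part in r was not tested. A high r need not mean shared states. *Fn1* and *Tgfbi* had r of 0.70, though Timp2+ over Cd206+ cells at 72 h was 10.7 for *Fn1* and 0.631 for *Tgfbi*.

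The partners of these proteins were counted in lists of matrix genes, over all monocyte/Mφ-like cells. These lists were likewise chosen with earlier results known, so the counts are a description only. From naïve to 24 h, 0 of 13 receptor genes that reached 50 CPM (of 19 measured) were at least 2-fold higher and 2 lower, with a median log2 ratio of -0.18 against 0.22 over all genes, of which 11.4% were higher and 8.5% lower. *Stab1*, a scavenger receptor, was at 179, 78.5 and 177 CPM in the naïve, 24 h and 72 h libraries, and the integrin subunit gene *Itgb5* at 185, 92.1 and 125 CPM. From 24 h to 72 h, 1 receptor gene was higher (*Stab1*) and 2 lower, namely *Cd36*, the thrombospondin and lipid receptor (173, 142 and 64.4 CPM), and the integrin subunit gene *Itgb7* (55.5, 75.0 and 34.1 CPM), where 3.82% of all genes were higher and 4.93% lower. The receptor median was 0.24, against -0.18 over all genes. The intervals of *Stab1* (0.351 to 0.555) and *Itgb5* (0.400 to 0.626) from naïve to 24 h include the 2-fold limit. So do those of *Cd36* (0.387 to 0.525) and *Itgb7* (0.367 to 0.560) from 24 h to 72 h.

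Against the same shares of all genes (11.4% higher and 8.5% lower at 24 h), the other lists were small. Of other matrix glycoproteins and proteoglycans, 4 of 22 measured reached 50 CPM, and 2 were at least 2-fold higher at 24 h than in naïve cells. These were *Lgals3*, the lectin galectin-3 (648, 3053 and 1085 CPM), and *Srgn*, the proteoglycan serglycin of secretory granules (629, 1318 and 986 CPM). Of 21 assembly and modifying enzymes 4 reached 50 CPM. Higher were the transglutaminase gene *Tgm2* (24.7, 54.1 and 52.3 CPM) and *P4hb*, a subunit of prolyl hydroxylase (117, 249.96 and 158 CPM). The ratio intervals of *Srgn* (1.87 to 2.36), *Tgm2* (1.24 to 4.27, 12 naïve UMIs) and *P4hb* (1.64 to 2.83) include the 2-fold limit. In the TGF-β pathway 1 of 6 (of 21 measured) was lower, the receptor gene *Tgfbr1* (224, 30.3 and 54.6 CPM), which in Cx3cr1+ cells of the naïve library was at 384 CPM. Of 3 matrix proteases (of 12 measured) 2 were lower at 24 h, the collagenase gene *Mmp13* (74.0, 1.45 and 4.55 CPM) and the gelatinase gene *Mmp9* (72.0, 17.5 and 30.2 CPM). The median log2 ratio from naïve to 24 h was 0.90 over the glycoproteins, 0.97 over the enzymes, -0.77 over the TGF-β pathway and -2.04 over the proteases. From 24 h to 72 h, *Lgals3* of the glycoproteins was lower and *Mmp12*, macrophage elastase (20.6, 5.34 and 54.6 CPM), of the proteases higher, while 0 of 5 enzymes and 0 of 7 genes of the TGF-β pathway differed by 2-fold.

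Between Timp2+ and Cd206+ cells at 72 h, 3 of 12 receptor genes were at least 2-fold higher and 3 lower, 2 of 4 other glycoproteins and 3 of 6 enzymes were higher and 0 lower in each list, and 0 of 8 genes of the TGF-β pathway differed by 2-fold. The median log2 ratio was 1.19 over the glycoproteins and 1.05 over the enzymes, against 0.15 over all genes, of which 10.9% were higher and 6.81% lower. Between Fabp5+ and Ly6c+ cells at 24 h, 3 of 13 receptor genes were higher and 2 lower, and 0 of 4 glycoproteins and 0 of 6 enzymes differed by 2-fold, where 3.12% of all genes were higher and 6.43% lower.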

How the data were processed

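The authors made the libraries with the 10x Genomics 3' kit, used Cell Ranger 3.0.2 with GRCm38/mm10 for alignment and UMI counting, and kept cells with no fewer than 200 genes and no more than 10% mitochondrial UMIs. Raw UMI counts were deposited for each gene in each cell, without any scaling, and every deposited cell was used.

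All 3 libraries were clustered jointly, with no correction for library, in Seurat 5.3.0 (R 4.3.3) from 2000 variable genes, 30 principal components (20 for monocytes/Mφs), 20 neighbours, resolution 0.8 and seed 0. The 6 genes and the matrix gene lists, 136 names of which 101 were measured, were left out of the variable genes. A cluster was named where at least 3 markers were detected in 10% of its cells and were 2-fold above other cells (pseudocount 10 CPM), unless its 10 leading genes held a marker of another leukocyte class. States were named by the same counts but without that last condition. Antibody and platelet genes stand among the leading genes of Fabp5+ cells, and none of these is a marker used for naming. T and NK/ILC clusters were pooled. Clusters of all cells left over were scored against named cells of other classes, a step not used for states. A state name also needed its naming gene, except that none was set for the intermediate-like state, where *Ccr2* did not pass. This rule was written after the clusters had been seen. Cluster 7 (244 cells, leading genes *Gm12840*, *Ptgs2* and *Siglecf*) stayed unnamed. Doublets were kept. Scrublet (scanpy 1.11.5) called 3, 5 and 8 cells in the naïve, 24 h and 72 h libraries, which is too few to rely on, so the 3, 39 and 12 cells with the highest scores were left out as an alternative.

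UMIs were summed (pandas 2.3.3, numpy 2.4.6) and intervals computed (scipy 1.17.1) in groups of at least 20 cells, and figures drawn with matplotlib 3.10.9. A count of 0 allows up to 3 counts. The 6 genes, the lists and the comparisons were chosen with earlier results of these data known. Of each list, genes are named with at least 50 CPM in a library and a 2-fold ratio between any 2 libraries, at most 6 per list, and for each of the 6 genes the 3 most correlated genes, among those with at least 100 CPM in a group. Gene positions are from GENCODE, promoters from RefSeq, which matched 4 of the 6 genes. The ratio intervals were tested on simulated Poisson counts without differences between cells, so that test does not cover counts that are uneven among cells. Alternatives were stricter cell filters, no high doublet scores, other resolutions, 15 principal components, all variable genes, means over cells and other thinning depths.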

Additional observations from a re-analysis of the deposited data

How the results depend on the processing

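Over all monocyte/Mφ-like cells, the ratio of 24 h to naïve for *Fn1* (0.831) reversed to 1.06 with the stricter cell filter and to 1.01 as a mean over cells, where *Spp1* moved to 26.3 and *Thbs1* to 1.59. The 72 h to 24 h ratio of *Fn1* moved to 1.59 with the stricter filter, 1.78 with 15 principal components and 1.84 as a mean over cells, that of *Thbs1* to 1.30 with the stricter filter and 1.85 as a mean over cells, and that of *Spp1* to 0.109 as a mean over cells. Less the UMIs per cell in lymphocytes, an alternative added after the data were seen, *Fn1* moved to 1.64, *Tgfbi* to 0.649 and *Ecm1* to 0.883. For Fabp5+ over Ly6c+ cells at 24 h, *Fn1* moved to 1.18 at resolution 1.2 and 1.23 as a mean over cells, *Tgfbi* to 0.571 at resolution 1.2, *Thbs1* to 1.69 without the highest doublet scores, and *Spp1* to 3.41 at resolution 0.5, 4.49 at resolution 1.2, 3.41 without the highest doublet scores, 4.04 as a mean over cells and 3.80 less the lymphocyte UMIs. For Timp2+ over Cd206+ cells at 72 h, *Fn1* moved to 9.53 as a mean over cells and 14.1 less the lymphocyte UMIs, *Ecm1* to 6.18 less the lymphocyte UMIs, and *Spp1* to 0.845 as a mean over cells. The cause was not tested. Leaving out the low-UMI cluster and the *Cd79a*/*Ebf1* cluster, also added after the data were seen, moved none of the 12 ratios between libraries beyond their interval.

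Of 54 values of the 24 h to naïve ratio under alternatives 50 stayed within the main interval, of 54 of the 72 h to 24 h ratio 45, and of 72 of the ratios between states 59. As a mean over cells, 10 of 18 levels in CPM moved beyond their interval, among them *Thbs1* at 72 h from 391 to 551 and *Spp1* in naïve cells from 150.1 to 107. Without thinning, or with 2000 UMIs per cell, 35 of 41 shares of cells moved beyond their interval. At resolution 0.5 the *Mmp12*/*Cxcl3* cluster merged with the *Ltc4s*/*Tppp3* cluster. No replicate could be left out, as each time point is 1 library. No paired analysis was possible because each group has 1 library and no test was made. Depth limits *Vcan* most, with 2 UMIs in naïve monocyte/Mφ-like cells.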
